A study of Mus musculus with 33 samples.

Results

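The 9 genes examined here were Neurod1, Neurod2, Neurog1, Neurog2, Neurog3, Atoh1, Olig1, Olig2 and Hes5, which encode basic helix-loop-helix (bHLH) transcription factors of neural development. They were chosen by name from the 22367 protein-coding genes of the GENCODE vM1 annotation on the mouse genome build mm9 (NCBIM37). No measured value set the choice, but earlier results of these data were known when it was made. The study mapped chromatin marks and pluripotency factors by chromatin immunoprecipitation with sequencing (ChIP-seq) in E14 mouse embryonic stem cells (mESC) of wild type (WT) and in an Uhrf1 knockout (KO) mESC line, and in embryoid bodies (EB) grown from each. Uhrf1 is a nuclear protein that maintains DNA methylation and reads histone marks, and the comparison asked which marks differed without it before and during differentiation. Of 33 libraries, 8 were inputs and 25 gave the lists of regions used here: H3K4me3 and H3K27me3 in both genotypes in mESC and EB at weeks 1, 2 and 3, H3K9me3, Oct4, Sox2 and Nanog in both genotypes in mESC, and Uhrf1 in WT mESC. The WT and KO lines came from another laboratory, mESC were kept on gelatin or on plates coated with mouse embryonic fibroblasts, and EB were started as hanging drops and hold mixed cell types. Uhrf1 was immunoprecipitated in WT cells alone, so the lists could not check the knockout itself.

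Proneural bHLH factors such as the Neurog proteins and Atoh1 bind E-box DNA as dimers with E proteins, drive progenitors towards a neuronal fate and switch on later bHLH genes such as Neurod1 and Neurod2. The Notch pathway opposes them: a cell that receives Notch signal makes Hes5, a bHLH repressor that turns proneural genes down and keeps the progenitor state. In embryonic stem cells, genes of this kind are textbook examples of bivalent promoters, which carry H3K4me3, a mark of active starts laid down by COMPASS-type enzymes, together with H3K27me3, the mark of Polycomb repressive complex 2.

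A gene was counted as carrying H3K4me3 where a deposited domain reached within 2 kb of its start, and as carrying H3K27me3 or H3K9me3 where a domain reached within 5 kb. H3K4me3 alone was called active, H3K27me3 alone repressive, both marks bivalent and neither no mark. Every group had 1 library, so no difference below has a replicate check or a test. Counts of the 9 genes in a state are set beside the share of all 22367 coding genes in that state. Each histone domain came with a mean read count per bin, which depends on sequencing depth and on the bin width. That value was therefore read against the other domains of its own list, and WT and KO counts are given side by side without a fold change.

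The lists differed in size. H3K4me3 lists held 11509 to 39898 domains. H3K4me3 bins were 1300 bp wide in mESC, so the ends of domains are coarser there. In EB they were 400 bp wide, except 350 bp in KO at weeks 1 and 2. H3K27me3 bins were 1800 bp wide, except 1500 bp in KO mESC and 1750 bp in WT week 1. The KO mESC H3K27me3 list stood apart, with 722 domains and a median mean count of 0.914, while the other 7 H3K27me3 lists held 3722 to 9488 domains with medians of 4.93 to 12.2. Every statement on H3K27me3 or bivalency in KO mESC rests on that list. The factor lists were also unequal, with 12898 Oct4 summits in WT and 576 in KO, 5190 and 20755 for Sox2, and 2390 and 10632 for Nanog. H3K4me3 lay at the start of 8 of 9 mESC markers in both WT and KO mESC. In WT mESC it also lay at 5 of 5 neural progenitor, 6 of 7 mesendoderm and 5 of 6 fibroblast markers. These counts therefore do not tell the cell types apart. Esrrb, an mESC marker, lacked H3K4me3 in every list. Both marks lay at 4 of 9 mESC markers in WT mESC and at 0 in KO mESC. They lay at 4 of 5 neural progenitor markers in WT mESC and at 1 of them in KO mESC. The corresponding counts were 6 and 1 of 7 mesendoderm markers and 5 and 1 of 6 fibroblast markers. The part of feeder or other cells in each culture was not tested, since the lists hold marks and no expression.

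In WT mESC, 7 of the 9 genes were bivalent, against 18.3% of all coding genes. Neurog1 was repressive (16.5%), Hes5 was active (44.8%), and 0 genes lacked both marks (20.3%). In KO mESC, 1 gene was bivalent (Neurog2, 4.29% of all genes), 3 were active (Neurod1, Atoh1 and Hes5, 52.7%), Neurod2 was repressive (3.29%), and Neurog1, Neurog3, Olig1 and Olig2 had neither mark (39.8%).

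At EB week 1, 6 genes were bivalent in WT (15.2%) and 3 repressive (5.25%). In KO, 1 was bivalent (Atoh1, 10.7%) and the other 8 were repressive (10.4%). At week 2 the order was the other way round. WT had 3 bivalent (13.7%), 5 repressive (16.1%) and 1 active gene (Hes5, 52%), while KO had 6 bivalent (13.4%) and 3 repressive genes (10.7%). At week 3 there were 6 bivalent (19.6%) and 3 repressive genes (13.7%) in WT, and 5 bivalent (11.3%), 3 repressive (8.2%) and 1 active gene (Hes5, 54.5%) in KO. No start was active in WT week 1 (46.8% of all genes), KO week 1 (46.3%), KO week 2 (51.1%) or WT week 3 (46.7%). No EB start lacked both marks, against 18.2% (WT week 2) to 32.7% (WT week 1) of all genes, with 20.1% in WT week 3, 24.8% in KO week 2, 26% in KO week 3 and 32.6% in KO week 1.

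Set gene by gene, the 7 genes bivalent in WT mESC were in KO mESC bivalent at 1 (14.6% of all genes bivalent in WT), active at 2 (60.5%), repressive at 1 (5.8%) and without a mark at 3 (19%). Of the 6 bivalent in WT week 1, 1 was bivalent in KO (50.9%), 5 were repressive (20.3%), and 0 were active (24.1%) or without a mark (4.69%). At week 2 all 3 stayed in the same class (54.5%), and at week 3, 5 of 6 did (46.7%) while Hes5 was active in KO (46.8%). Between WT and KO the class differed for 7 of 9 genes in mESC, for 5 at week 1, for 3 at week 2 and for 1 at week 3. The share of all coding genes whose class differed was not counted, so these counts have no background. In mESC, 84.5% of all genes with H3K27me3 in WT had none in the KO list, so changes of class were common there.

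**Figure D1:**
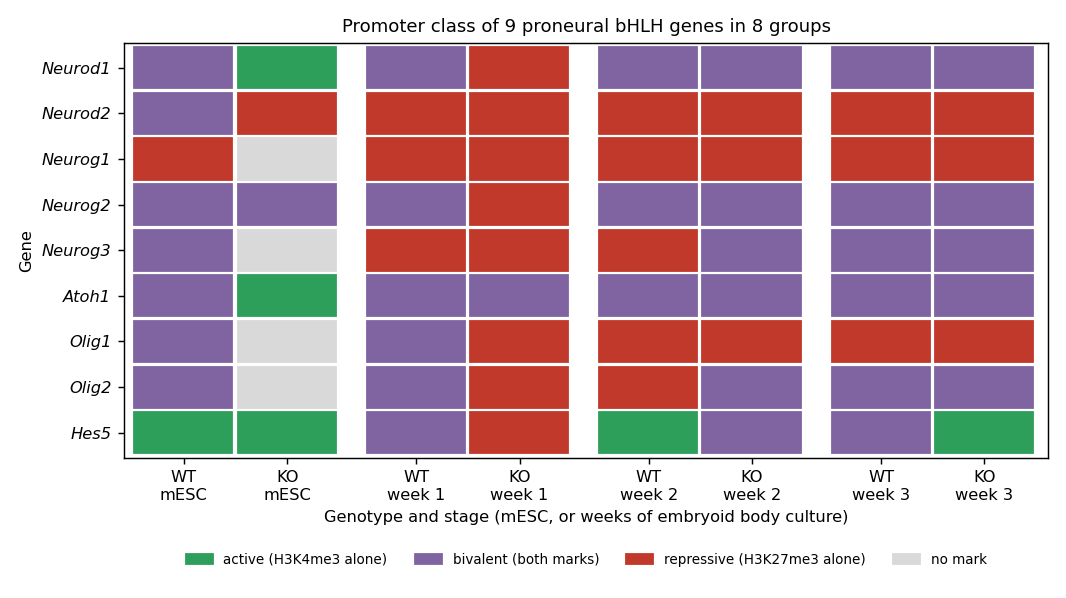
Promoter class of each of the 9 genes (rows) in WT and Uhrf1 KO at 4 stages (columns), 1 library per mark and group. Green is H3K4me3 alone, purple both marks, red H3K27me3 alone and grey neither. The KO column differs from the WT column at 7 genes in mESC and at 1 gene, Hes5, at week 3. The share of all coding genes that differed was not counted.

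H3K4me3 lay at 8 of 9 starts in WT mESC (63.2% of all genes) and at 4 in KO mESC (57%). Of the 8 genes with it in WT, 4 had none in KO (Neurod2, Neurog3, Olig1 and Olig2), while 12% of all genes with H3K4me3 in WT mESC had none in KO. At week 1, H3K4me3 lay at 6 starts in WT (62.1%) and 1 in KO (57%), so that 5 of the 6 genes had none in KO, against 10% of all such genes. A 5 kb window gave 3 marked genes in KO week 1. At week 2 it lay at 4 starts in WT (65.7%) and 6 in KO (64.5%), and 0 of the 4 WT genes lacked it in KO (5.33%). At week 3 the same 6 genes carried it in WT (66.2%) and KO (65.8%).

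The 9 genes were also set beside the bivalent genes as a class. Of the genes bivalent in WT, 4 of 7 had no H3K4me3 in KO mESC (24.9% of all bivalent genes) and 5 of 6 had none in KO at week 1 (25%). In WT mESC, 6 of the 8 domains at the genes had a mean count under their list's median of 13.5, and in WT week 1 all 6 were under the median of 13. Among genes bivalent in WT whose domain was under its list's median, H3K4me3 was missing in KO at 4 of 5 in mESC (36% of all such genes) and at 5 of 6 at week 1 (36.1%). In mESC these 5 domains were above 10.1% (Neurog3) to 18.6% (Neurod2) of the WT list. At week 1 the 6 domains were above 0.519% (Olig1) to 35.9% (Atoh1) of it. The shares of 36% and 36.1% cover every such gene under the median, so they are not matched to these ranks. The part of low WT domain counts in the difference was not tested.

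**Figure D2:**
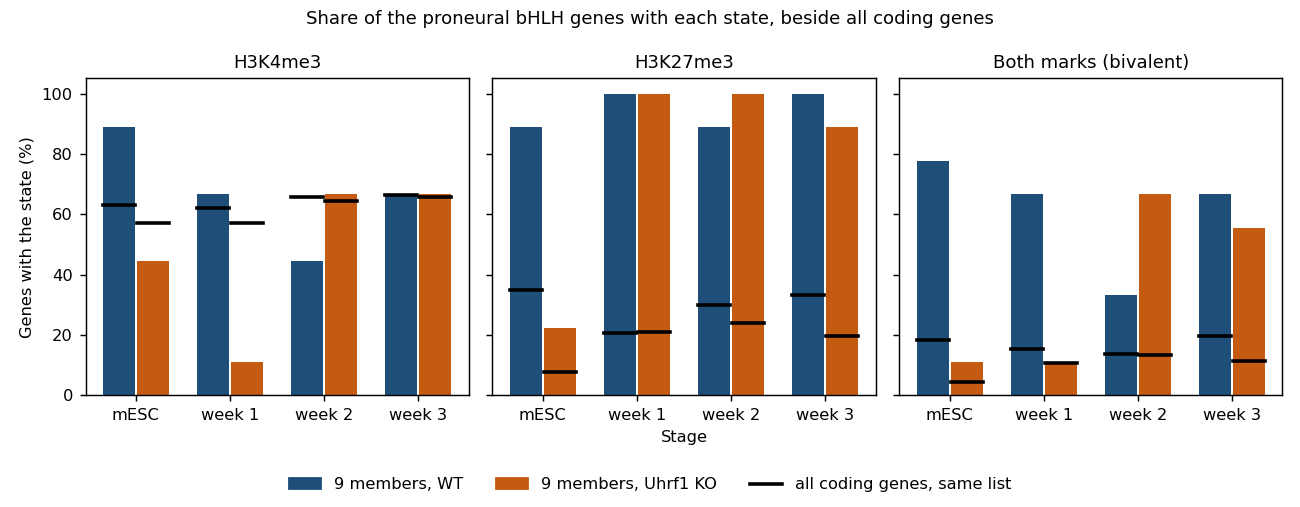
Percent of the 9 genes with H3K4me3, H3K27me3 or both marks in WT (blue bars) and Uhrf1 KO (orange bars) at each stage, with the percent of all 22367 coding genes in the same list as a black line. H3K4me3 lay at 8 genes in WT mESC and 4 in KO mESC, and at 6 and 1 at week 1, while the line moved from 63.2% to 57% and from 62.1% to 57%.

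H3K27me3 lay at most of the 9 genes at every EB stage. WT mESC had it at 8 starts (34.9% of all genes), WT week 1 at 9 (20.5%), WT week 2 at 8 (29.8%) and WT week 3 at 9 (33.2%), and 8 of the 9 genes carried it at all 4 stages in WT (10.2%). KO mESC had it at 2 starts (7.57%), KO week 1 at 9 (21.1%), KO week 2 at 9 (24.1%) and KO week 3 at 8 (19.5%), and 2 genes, Neurod2 and Neurog2, carried it throughout in KO (3.47%). Of the 8 genes marked in WT mESC, 6 were unmarked in KO, and 84.5% of all genes marked in WT mESC were unmarked in that KO list. At week 1, 0 of 9 genes lacked the mark in KO, against 27.7% of all marked genes. At week 2 these values were 0 of 8 against 51.2%, and at week 3 they were 1 of 9 (Hes5) against 50.1%. With KO domains held to the lowest mean count of the WT list, 4 genes rather than 8 were marked in KO week 3 and 1 rather than 2 in KO mESC. That limit was not scaled to read depth or bin width, so it is not alike in the 2 genotypes. The H3K27me3 domains ran from 15.8 to 3713 kb in WT and from 9 to 934 kb in KO, and most held neighbouring genes too.

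H3K9me3, a mark of heterochromatin that Uhrf1 binds, was mapped in mESC. It lay within 5 kb of 4 starts in WT (29.7% of all genes): Neurod2, Neurog1, Neurog2 and Atoh1. In KO it lay at 2 (40.1%), Neurod2 and Atoh1. The WT domains were 39.6 to 313 kb long with mean counts of 13.2 to 14, all under their list's median of 15. The KO domains were of another scale, 2205 kb with 19 coding genes at Atoh1 and 26415 kb with 471 coding genes at Neurod2, so they were not particular to these starts. The nearest WT domains missed the start of Neurod1 by 7.49 kb and that of Olig2 by 7.2 kb, just outside the limit.

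Neurod1, a differentiation factor of neurons and of pancreatic endocrine cells, lies at chr2:79292678-79296908 on the minus strand, and a transcript of Cerkl is annotated over its first exon. It was bivalent in WT at all 4 stages, and in KO it was active in mESC, repressive at week 1 and bivalent at weeks 2 and 3. Its H3K4me3 domain in mESC had a mean count of 13.9 in WT, above 53.2% of its list, and 9.38 in KO, above 32.1%. At week 1 the WT domain had a mean count of 9.3 and held the start, while the nearest KO domain lay 2.31 kb away, outside the 2 kb limit. At weeks 2 and 3 the mean counts were 10 and 11.8 in WT and 6.87 and 9.29 in KO. A 5 kb window marks Neurod1 in KO week 1 as well. H3K27me3 in WT mESC had a mean count of 4.13 over 302 kb, under the list's median, and in KO mESC the nearest domain was 3854 kb away. At week 1 it covered 31.5 kb in WT and 9 kb in KO.

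Neurod2, which acts later in neurons of the cortex, lies at chr11:98186729-98190962 on the minus strand. It was bivalent in WT mESC, repressive in KO mESC and repressive in both genotypes at all 3 EB stages. Its WT mESC H3K4me3 domain was 109 kb long (chr11:98129201-98238400) with a mean count of 9.76, and it covered the genes Cdk12, Stard3, Neurod2 and Ppp1r1b. In all, 83 of the 15272 domains of that list were at least as long, so the bivalent call of Neurod2 came from a domain that spanned its neighbours. In KO mESC the starts of the other 3 genes kept H3K4me3, and the domain nearest to Neurod2 was 11 kb away. H3K27me3 at Neurod2 was strong in its lists. Its WT mean counts from mESC to week 3 were 13.7, 26.4, 9.27 and 20.4, above 98.6%, 98.8%, 90.1% and 99.2% of the domains. Its KO mean counts were 4.51, 15.4, 11.3 and 7.8, above 94.9%, 93%, 96.9% and 92.9%. Neurod2 and Neurog2 were the 2 genes that kept H3K27me3 in KO mESC, over 99 kb and 198 kb.

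Neurog1, a determination factor for cranial sensory neurons, lies at chr13:56351866-56353524 on the minus strand. It carried no H3K4me3 domain in any of the 8 lists, with the nearest domains between 5.38 kb (WT mESC) and 101 kb (KO mESC) away. It was repressive in 7 of the 8 groups and had no mark in KO mESC. H3K27me3 mean counts were 7.84, 17.5, 8.84 and 12.5 in WT from mESC to week 3, above 87.9%, 87.5%, 87.5% and 92.8% of their lists. In KO EB they were 10.6, 8.89 and 5.58. Neurog1 was also the gene with the tallest Oct4 summit near any of the 9 starts, and the sequence just upstream of its start is shown for that reason. The 250 bases, on the gene's strand, end 22 bases before the start (mm9, chr13:56353546-56353795, intergenic). Capitals mark the Oct4 octamer ATGCAAAT and the Sox core CATTGT, searched on both strands.
Neurog1 upstream: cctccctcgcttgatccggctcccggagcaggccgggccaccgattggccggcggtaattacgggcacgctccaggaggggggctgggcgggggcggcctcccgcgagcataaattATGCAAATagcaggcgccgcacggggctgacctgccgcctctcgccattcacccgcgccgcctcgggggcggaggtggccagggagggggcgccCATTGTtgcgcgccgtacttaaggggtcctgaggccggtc

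The octamer ran from -155 to -148 and the Sox core from -61 to -56, counted from the gene start. An octamer was found in 1.66% and a Sox core in 9.45% of the same windows of all coding genes. The WT Oct4 summit lay at -173 with 99 reads, above 96.6% of WT Oct4 summits, and the WT Sox2 summit at -106 with 24 reads. In KO an Oct4 summit lay at -164 with 25 reads, Sox2 at -210 with 21 reads and Nanog at -40 with 8 reads.

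Neurog2, a determination factor of cortical and spinal neurons, lies at chr3:127336054-127338549 on the plus strand. It was bivalent in WT at all 4 stages and in KO at all stages but week 1, where it was repressive. H3K4me3 at its start was broad and low. The WT domains were 20.8, 16, 12 and 11.2 kb long from mESC to week 3, with mean counts of 8.79, 5.58, 9.37 and 8.46. The week 1 value was above 1.99% of its list. In KO the domains were 19.5 kb in mESC, 6.65 kb at week 2 and 10.8 kb at week 3, with mean counts of 5.39, 5.67 and 8.89. At week 1 the nearest KO domain was 77.8 kb away, so a wider window does not restore that call. The KO week 2 domain did not hold the start and covered 29.9% of the 4 kb window. H3K27me3 was strong in EB, at 26.9, 17.8 and 11.3 in WT and 21.6, 7.88 and 7.1 in KO from week 1 to week 3.

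Neurog3, known mainly as the determination factor of pancreatic endocrine cells, lies at chr10:61595838-61597511 on the plus strand. It was bivalent in WT mESC, without a mark in KO mESC, and repressive in both genotypes at week 1. At week 2 it was repressive in WT and bivalent in KO, and at week 3 bivalent in both. H3K4me3 in WT had a mean count of 8.69 in mESC and 7.62 at week 3, above 10.1% and 12.9% of the lists. In KO it was 11 at week 2 and 6.09 at week 3. The KO week 2 domain was 0.35 kb long, the width of 1 bin, and covered 8.75% of the window, the smallest share among the H3K4me3 calls of the 9 genes.

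**Figure D3:**
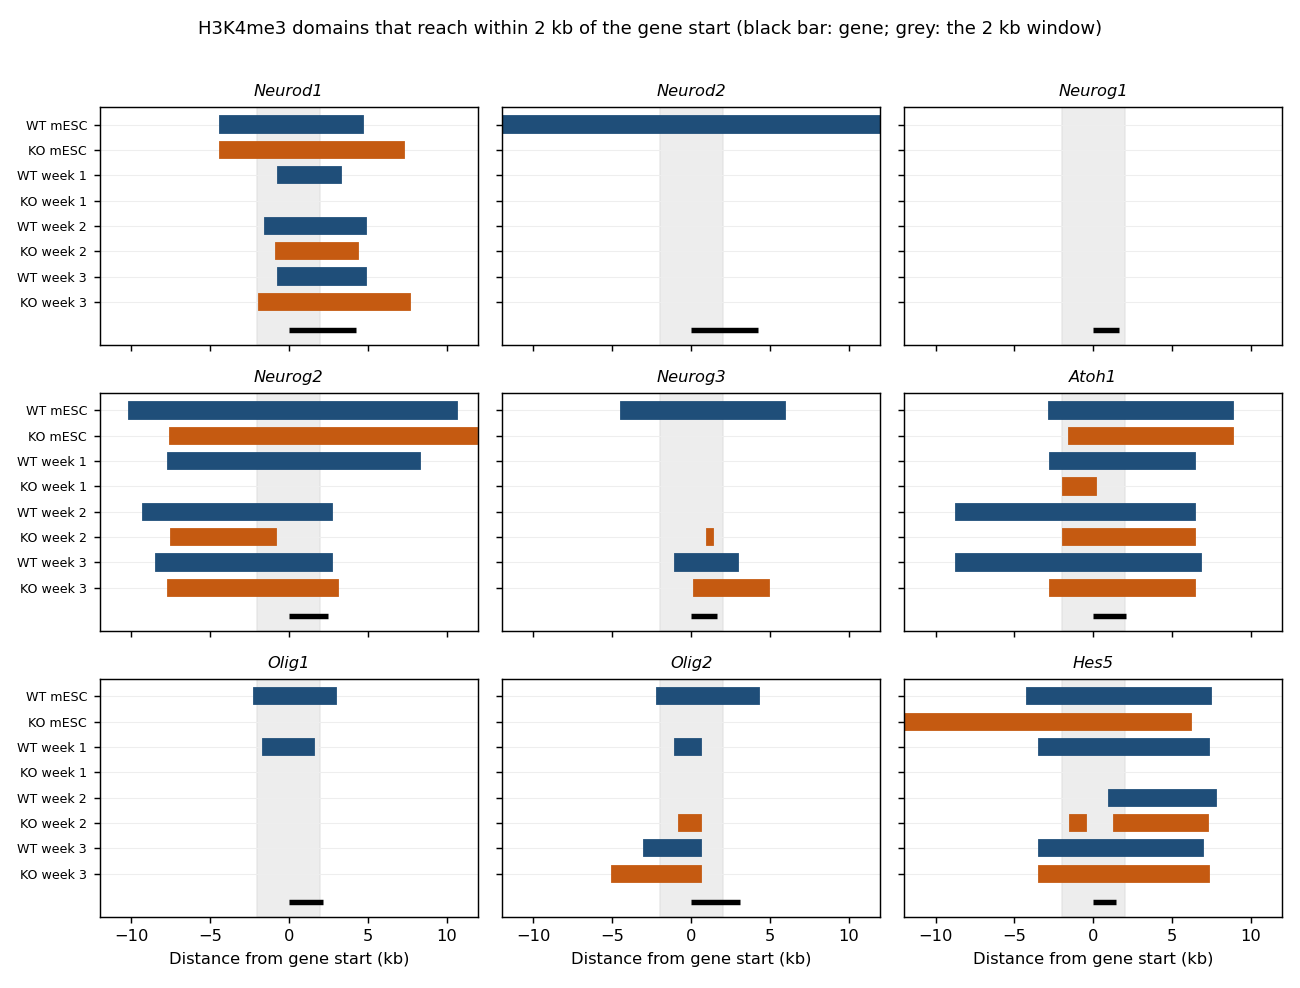
H3K4me3 domains that reach within 2 kb of the start (bars, blue WT, orange Uhrf1 KO) by distance from the gene start in kb, positive into the gene, for each of the 9 genes in 8 lists. Bars are cut at the panel edge where a domain runs beyond it, and the black bar is the gene. No bar lies in the Neurog1 panel, and KO week 1 has a bar at Atoh1 alone.

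Atoh1, the determination factor of cerebellar granule cells and inner ear hair cells, lies at chr6:64679140-64681227 on the plus strand. It was bivalent in 7 of 8 groups and active in KO mESC, and of the 9 genes it alone kept H3K4me3 in every list. Of all coding genes, 57.2% carried H3K4me3 at all 4 stages in WT and 51% in KO. WT mean counts were 15.7, 10.7, 11.7 and 10.8 from mESC to week 3, over 11.7, 9.2, 15.2 and 15.6 kb. KO mean counts were 5.62, 11.7, 7.79 and 11.4, over 10.4, 2.1, 8.4 and 9.2 kb. The WT counts were above 66%, 35.9%, 60.4% and 44.1% of their lists. The KO counts were above 3.68%, 54%, 43.7% and 50.1%. The KO domain was the shorter of the pair at each stage. H3K27me3 mean counts in WT were 5.08, 16.5, 7.64 and 10.4, and in KO EB they were 9.88, 7 and 4.78. In KO mESC the nearest H3K27me3 domain was 6475 kb away.

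Olig1 (chr16:91270014-91272184) and Olig2 (chr16:91225795-91228922) lie beside each other on the plus strand and specify oligodendrocytes, Olig2 also motor neurons. Both were bivalent in WT mESC and WT week 1, without a mark in KO mESC, and repressive in KO week 1. From week 2 they parted. Olig1 was repressive in all 4 groups of weeks 2 and 3, with the nearest H3K4me3 domain 43.6 to 44 kb away. Olig2 was repressive in WT week 2 and bivalent in KO week 2 and in both genotypes at week 3. H3K4me3 mean counts at Olig1 were 8.75 in WT mESC and 5 in WT week 1, the latter above 0.519% of its list. At Olig2 they were 8.86, 8.75 and 8.22 in WT mESC, week 1 and week 3, and 7.5 and 6.63 in KO weeks 2 and 3. In EB these domains ran from 1.4 to 5.6 kb at Olig2, the longest in KO week 3, where the list median was 3.6 kb. In each list where the genes carried H3K27me3, 1 domain covered both, so these calls are not independent. Its mean counts were 6.73, 18.8, 8.72 and 12.2 in WT and 14.5, 9.4 and 7.25 in KO EB.

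Hes5, the Notch target and repressor of the other genes' class, lies at chr4:154335032-154336480 on the plus strand and followed its own course. It was active in both genotypes in mESC, and at week 1 bivalent in WT and repressive in KO. At week 2 it was active in WT and bivalent in KO, and at week 3 bivalent in WT and active in KO. H3K4me3 mean counts were 12.7, 7.89, 12.6 and 11.7 in WT from mESC to week 3. In KO they were 3.77 in mESC, over 26 kb and above 0.122% of the list, then 7.33 and 10.1 in a pair of domains at week 2, and 12.4 at week 3. At KO week 1 the nearest domain was 2.37 kb away, just beyond the limit. At week 2 neither genotype's domains held the start itself, and they covered 25.8% of the 4 kb window in WT and 43.3% in KO. H3K27me3 domains at week 1 were 15.8 kb in WT and 14.4 kb in KO, where the list medians were 8.75 and 16.2 kb. The WT week 3 domain was 18 kb (list median 46.8 kb), while the KO week 2 domain ran over 934 kb with 13 coding genes. The 250 bases upstream of Hes5 (mm9, chr4:154334761-154335010) are shown because they hold the Notch effector motif GTGGGAA, bound by RBPJ, on either strand, beside the Sox core CATTGT. Capitals mark these motifs. Part of this stretch is an exon of the non-coding gene RP24-89N4.5.
Hes5 upstream: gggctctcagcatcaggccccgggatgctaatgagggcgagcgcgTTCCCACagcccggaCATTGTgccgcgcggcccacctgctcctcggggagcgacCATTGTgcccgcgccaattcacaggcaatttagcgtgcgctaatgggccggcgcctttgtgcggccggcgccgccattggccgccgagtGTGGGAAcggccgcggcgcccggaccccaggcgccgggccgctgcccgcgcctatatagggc

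RBPJ motifs began at -226 and -83 and Sox cores at -211 and -172, counted from the gene start. The RBPJ motif was found in 5.14% of these windows over all coding genes and in none of the other 8 genes. A Sox core was also found upstream of Neurog1, Olig1 and Olig2. In KO mESC a Sox2 summit lay at -144 with 25 reads, and no WT summit of any factor lay within 5 kb of Hes5.

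**Figure D4:**
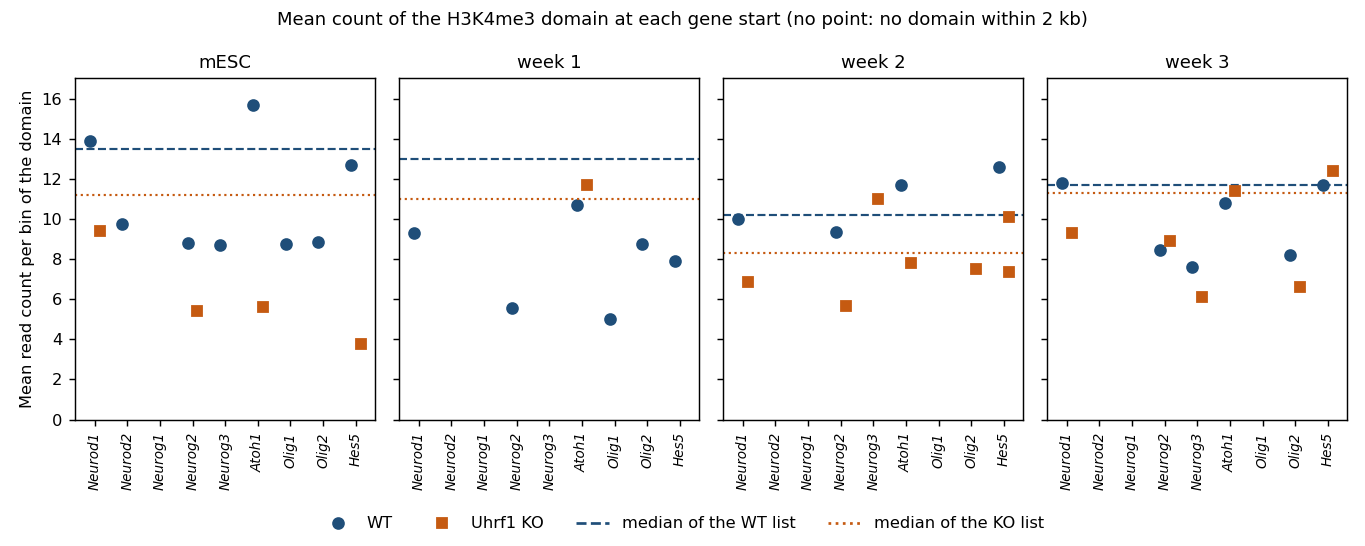
Mean read count per bin of the H3K4me3 domain at each gene start, in WT (blue circles) and Uhrf1 KO (orange squares) at 4 stages, with the median over all domains of each list as lines. A missing point means no domain within 2 kb, and Hes5 has 2 KO domains at week 2. All 6 WT week 1 points lie under the WT median of 13, as do 6 of the 8 WT mESC points under 13.5.

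Where a gene carried H3K4me3 in both genotypes, the mean count was lower in KO at 4 of 4 genes in mESC and 4 of 4 at week 2, and at 3 of 6 at week 3. At week 1 the 1 gene marked in both, Atoh1, had the higher count in KO. The medians of all domains were also lower in KO, 11.2 against 13.5 in mESC and 8.31 against 10.2 at week 2, as they were at weeks 1 and 3. At weeks 1 and 2 the KO bins were 350 bp wide and the WT bins 400 bp, and a narrower bin holds fewer reads. The part of bin width and read depth in these differences was not tested. H3K27me3 mean counts were lower in KO at 2 of 2 genes in mESC, 9 of 9 genes at week 1 and 8 of 8 at week 3. The KO bins were 1500 bp against 1800 bp in WT in mESC, and 1800 bp against 1750 bp at week 1. At week 2, with bins of 1800 bp in both genotypes, the mean counts were higher in KO at 6 of 8 genes, Neurog2 and Atoh1 being the exceptions. The list medians were lower in KO at all 3 EB stages, 9.73 against 12.2, 6.2 against 6.5 and 5.14 against 8.59. At week 2 the KO and WT counts were close at Neurod1 (6.24 and 6.14) and Neurog1 (8.89 and 8.84). Olig1 and Olig2 share 1 domain (9.4 and 8.72) and count as 2 of the 6 genes. No count was scaled to read depth, and the direction of these differences was not tested.

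Oct4, Sox2 and Nanog, the core pluripotency factors, were mapped in mESC as peak summits with a height in reads. A summit was assigned to a gene within 20 kb of its body, and summits within 100 bp counted as the same site. Oct4 lay near 7 of the 9 genes in WT (30.1% of all genes) and near 1, Neurog1, in KO (1.1%). Sox2 lay near 6 genes in WT (18.8%) and all 9 in KO (57.7%). Nanog lay near 0 genes in WT (7.51%) and near 6 in KO (27.4%). These counts moved with the length of the lists. With the longer list of each factor shortened to its tallest summits at the length of the other genotype's list, Oct4 lay near 1 gene in WT, as in KO. Sox2 then lay near 3 genes in KO, fewer than the 6 in WT, and Nanog near 1 gene in KO. Of the genes with Oct4 in WT, 6 of 7 had none in KO, and 96.5% of all such genes had none in the shorter KO list.

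**Figure D5:**
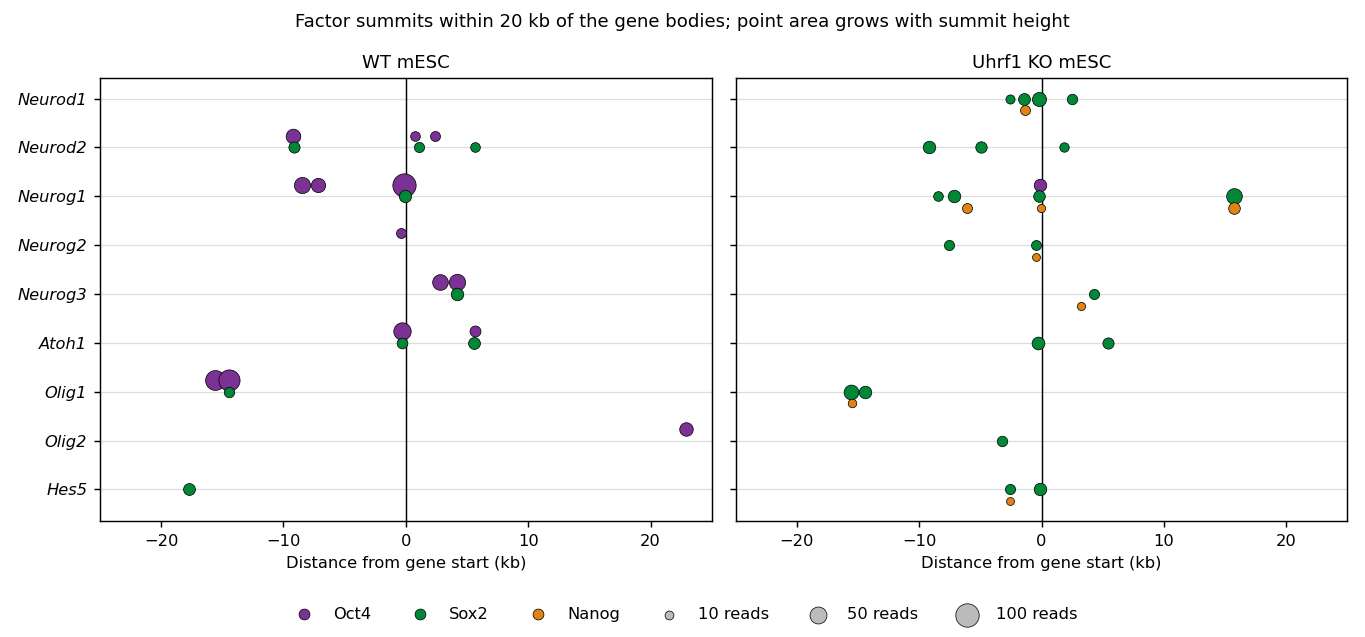
Oct4 (purple), Sox2 (green) and Nanog (orange) summits within 20 kb of the 9 genes in WT and Uhrf1 KO mESC, by distance from the gene start in kb, positive in the direction of transcription, with point area growing with summit height in reads. Purple points lie near 7 genes in WT and near Neurog1 alone in KO, and green points lie near all 9 genes in KO.

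These were 14 Oct4 sites in WT, of 13 to 99 reads with a median of 39, close to the median of 37 over the whole list. In KO, 1 of the 14 kept an Oct4 summit within 100 bp (1.89% of all WT Oct4 sites). A KO Sox2 summit lay within 100 bp of 8 of the 14 (46%), a KO Nanog summit within 100 bp of 1 (32.4%), and 6 had none of the 3 factors (47.9%). A WT Sox2 summit already lay within 100 bp of 5 of the 14 (24.2%). Of these, Neurog1 -173, Neurog3 4208, Atoh1 -309 and Olig1 -14463 were also among the sites with KO Sox2. Sox2 had 9 sites in WT and 21 in KO, of which 4 were shared. WT Sox2 heights ran from 13 to 25 reads and KO heights from 11 to 42. The 8 KO Nanog sites were low, from 7 to 21 reads with a median of 8.5, under the list's median of 12.

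The sites that carried most reads beside Neurog1 were at the Olig locus, and they are shown with the Atoh1 site nearest to a start. Each sequence is 101 bases of mm9 centred on a WT Oct4 summit, on the strand of the gene, with octamer and Sox core in capitals. All 3 stretches are intergenic. They are chr16:91254384-91254484 and chr16:91255501-91255601 for Olig1 and chr6:64678781-64678881 for Atoh1.
Olig1 -15580: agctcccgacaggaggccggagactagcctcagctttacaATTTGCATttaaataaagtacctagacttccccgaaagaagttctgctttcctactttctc
Olig1 -14463: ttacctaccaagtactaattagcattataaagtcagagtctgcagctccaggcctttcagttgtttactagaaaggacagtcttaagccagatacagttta
Atoh1 -309: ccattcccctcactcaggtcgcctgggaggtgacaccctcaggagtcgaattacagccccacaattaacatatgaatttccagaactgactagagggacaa

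The Oct4 summits at Olig1 had 70 reads at -15580 and 81 at -14463, above 87.2% and 91.9% of WT Oct4 summits. Neither had Oct4 in KO, and KO Sox2 summits lay at -15555 with 37 reads and -14423 with 25 reads, where WT had Sox2 at -14444 with 16. KO Nanog lay at -15490 with 9 reads. The first sequence holds an octamer and the second none. At Atoh1 the WT Oct4 summit at -309 had 53 reads and WT Sox2 at -284 had 17, and in KO Sox2 lay at -273 with 26 reads. A further WT pair lay at 5638 (Oct4, 18 reads) and 5600 (Sox2, 22 reads) and had no KO summit within 100 bp. A separate KO Sox2 summit lay at 5407 with 19 reads.

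Octamers were found at 3 of the 14 WT Oct4 sites, against 8.82% of all WT Oct4 summits: at Neurog1 -173 and -7203 and at Olig1 -15580. The second Neurog1 site, intergenic at chr13:56360677-56360777, had 34 reads and no Oct4 summit in KO, and it is shown beside the retained site above because it holds the same octamer.
Neurog1 -7203: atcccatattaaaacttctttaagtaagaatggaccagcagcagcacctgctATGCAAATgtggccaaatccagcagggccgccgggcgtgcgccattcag
A Sox core was found at 2 of the 9 WT Sox2 sites, Neurog1 -106 and Hes5 -17720, against 13.1% of all WT Sox2 summits, and at 1 of the 21 KO Sox2 sites, Hes5 -144, against 12.9% of all KO Sox2 summits. A match is a description of letters and not a measured site.

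At the other genes the summits were lower or farther away. Neurog3 had WT Oct4 at 2799 and 4208 with 42 and 46 reads, both in an intron of 2010107G23Rik, with WT Sox2 at 4222 (25 reads) and KO Sox2 at 4250 (15 reads) and Nanog at 3193 (8 reads). Neurod2 had WT Oct4 at -9255, 728 and 2376 with 36, 13 and 14 reads, the last in its exon, WT Sox2 at -9109, 1101 and 5630 with 19, 15 and 13, and KO Sox2 at -9179, -4987 and 1824 with 25, 20 and 12. Neurog2 had WT Oct4 at -360 with 14 reads and in KO Sox2 at -482 and -7569 with 14 and 15 reads and Nanog at -491 with 7. Neurog1 had another WT Oct4 site at -8483 with 45 reads, and KO Sox2 at -7134, -8440 and 15747 with 25, 13 and 42 reads and Nanog at -6129 and 15718 with 14 and 21.

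Neurod1 had no WT summit of any factor within 20 kb, and in KO it had Sox2 at -238, -1398, -2602 and 2479 with 33, 22, 11 and 16 reads and Nanog at -1369 with 14. The tallest of these is shown (mm9, chr2:79297096-79297196, in an intron of Gm17325), since it lay closest to the start of a gene that had none in WT. It holds neither motif, so no letter is in capitals.
Neurod1 -238: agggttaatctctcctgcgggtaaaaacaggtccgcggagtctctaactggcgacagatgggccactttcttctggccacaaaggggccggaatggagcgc
Hes5 had WT Sox2 at -17720 with 22 reads, inside the 20 kb limit, and KO Sox2 at -2554 (15 reads) and Nanog at -2613 (7 reads) beside the site at -144. The Oct4 summit between the Olig genes, of 30 reads, lay 19756 bp from the body of Olig2, just inside the limit, and 21336 bp from that of Olig1, just outside. Olig2 had KO Sox2 at -3237 with 16 reads.

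No Uhrf1 window of 10 kb lay on any of the 9 genes, while 9.84% of all coding genes held one. The call needs overlap with the gene body, and these genes are 1449 bp (Hes5) to 4234 bp (Neurod2) long. The 9.84% was not matched for gene length. The nearest window was at 10 kb from Olig1 and 21.1 kb from Olig2 (chr16:91250001-91260000), and the others were 69.1 kb from Atoh1 and 279 to 714 kb from the remaining 6 genes. The median distance was 462 kb for the 9 genes and 172 kb for all coding genes. Within 50 kb, 2 of 9 genes had a window (27.2% of all genes), and that window held both Oct4 sites of Olig1 shown above. The Uhrf1 list gives window positions with no height, so its strength there could not be read.

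Base composition varied among the starts of the 9 genes. Over 1001 bases around the start, GC content ran from 53.7% (Neurod1) to 68.8% (Neurog1), with a median of 54.7% over all coding genes. The observed over expected CpG ratio ran from 0.455 (Neurod2) to 0.852 (Neurog2), with a median of 0.549. Neurod2 and Neurog3, at 0.455 and 0.506, were under that median and the other 7 above it. GC content was under its median at Neurod1 alone. RefSeq promoters of 8 of the 9 genes were found in the same place of mm9, and their starts lay within 115 bp of those used here.

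The patterns of the 16 states (H3K4me3 and H3K27me3 in 4 stages and 2 genotypes) were compared between genes. Neurod1 shared 15 states with Neurog2 and 15 with Atoh1, and Neurog3 shared 15 with Olig2. Neurod2, Neurog1 and Olig1 shared 14 in each of their pairings, and Olig1 shared 13 with its neighbour Olig2. Among the other listed bHLH and Notch genes, Atoh1 had the same 16 states as Bhlhe22 and Id4, Neurod2 the same as Bhlhe23 (14 as Neurod6, 11 as Hes2), and Neurog1 the same as Neurod6 (14 as Bhlhe23, 13 as Ptf1a). Neurod1 shared 15 with Bhlhe22, Id4 and Olig3. Neurog2 shared 15 with Dll4 and 14 with Bhlhe22 and Hes7. Neurog3 shared 14 with Nhlh2 and Olig3, Olig1 shared 14 with Bhlhe23 and Neurod6 and 13 with Hes2, and Olig2 shared 15 with Nhlh2 and 14 with Dll1. Hes5 shared 14 with Hes3 and 13 with Atoh7 and Hey2. The Atoh1 pattern was common, found in 338 other coding genes (1.51%), while that of Olig1 or Neurog3 was found in 3 (0.0134%).

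Other genes of the pathway were counted in the same way. Of 11 further neural bHLH activators, 5 carried H3K4me3 in WT mESC, of which 2 had none in KO, and at week 1 these counts were 5 and 1. Nhlh2, a neuronal bHLH factor, was repressive in KO week 1 where it was bivalent in WT, and bivalent in KO week 2 where it was repressive in WT, as Olig2 was. Of 12 Hes, Hey and Id inhibitors, 12 carried H3K4me3 in WT mESC and 11 at week 1, of which 2 had none in KO at each stage. These were Hes2 and Heyl at both stages. The E proteins Tcf3 and Tcf12, the dimer partners of proneural factors, kept H3K4me3 in every list.

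Of 14 Notch pathway genes, H3K4me3 was missing in KO at 2 of 11 genes with it in WT mESC, 3 of 12 in week 1, 2 of 14 in week 2 and 0 of 13 in week 3. Notch4, a receptor, lacked it in KO in mESC and weeks 1 and 2 and carried it in WT at all of these. Dll1, the ligand gene that proneural factors switch on, was bivalent in all 6 EB groups and in WT mESC, and without a mark in KO mESC. Among the markers, H3K4me3 was missing in KO week 1 at 3 of 4 neural progenitor genes, 4 of 6 mESC genes, 2 of 7 mesendoderm genes and 1 of 5 fibroblast genes. Pax6 and Sox3, regulators of neural progenitors, were bivalent in WT and without a mark in KO mESC, and repressive in KO week 1. The other neural progenitor markers differed from this. Nes was bivalent in both genotypes in mESC and at week 1. Tubb3 was active in both in mESC, and at week 1 bivalent in WT and repressive in KO. Zic1 was bivalent in WT and without a mark in KO mESC, but repressive in both genotypes at week 1. Dppa3, an mESC gene, was bivalent in WT week 1 and without a mark in KO, and at week 3 without a mark in WT and active in KO.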

How the data were processed

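Chromatin from E14 mESC, WT or Uhrf1 KO, and from EB of weeks 1, 2 and 3 was immunoprecipitated and sequenced by the authors, who aligned reads to mm9 with Bowtie2 2.1.0. Per the labels and the study's methods, RSEG called histone domains, MACS called factor summits, and Uhrf1 was called in 10 kb windows against input. The authors deposited for each domain a score and its signal (reads per bin, averaged), and for each summit its signal (height in reads). The Uhrf1 list holds positions. The authors classed promoters by read enrichment over input, while the deposited domains were used here. The 8 inputs had no list and were not analysed here. The lists give no total reads per library, and the totals that the study lists elsewhere were not used here, so no value was scaled to depth.

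Domains were overlapped with windows of 2 kb (H3K4me3) or 5 kb (H3K27me3, H3K9me3) around the gene start farthest upstream, using Python 3.11.15 and numpy 2.4.6, with figures from matplotlib 3.10.9. List coordinates lay within the NCBIM37 chromosomes in all 530 pairs of list and chromosome compared. A further 39 pairs were not compared, since the reference lacked the sequence. On simulated domains, 200 of 200 genes were called as made. With 1 library per group no test was run, and all 22367 coding genes served as the background. Other windows, domain scores, summit heights and list lengths were tried. The genes, and the lists of related genes and markers, were chosen with earlier results of these data known. Besides the 9 genes, the text names up to 3 listed pathway genes per gene that share most of its 16 states, and up to 4 genes per list whose H3K4me3 differed between WT and KO in at least 2 stages. Some genes that this rule names are not reported here. Of the listed markers, 1 mESC gene and 1 neural progenitor gene had no match in the annotation. The other genes named were chosen after their values were seen: Esrrb, Tcf3 and Tcf12, and Cdk12, Stard3 and Ppp1r1b, which share the Neurod2 domain. Nes, Tubb3 and Zic1 were named beside Pax6 and Sox3 to give all matched neural progenitor markers. Sequences were read from NCBIM37.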

Additional observations from a re-analysis of the deposited data

Results flagged for a closer look

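The KO minus WT difference in the number of marked genes took opposite signs at different stages, and these differences between stages were not tested. For H3K4me3 it was -4 genes in mESC and -5 at EB week 1, and 2 at week 2, where Neurog3 and Olig2 were marked in KO alone. For H3K27me3 it was -6 genes in mESC, 1 at week 2 and -1 at week 3, the last 2 values both being Hes5. For bivalency it was -6 genes in mESC and -5 at week 1, 3 at week 2 (Neurog3, Olig2 and Hes5) and -1 at week 3 (Hes5). The mESC values for H3K27me3 and bivalency rest on the KO list of 722 domains.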

How the results depend on the processing

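Of 129 values of 33 counts under other settings, 113 stayed within 1.5 times the reported count and 89 held the same genes. Some settings could change few calls. Using any transcript start could alter only Neurod1 and Hes5, since each other gene has 1 start. Most H3K27me3 domains were long beside the windows of 2 and 10 kb tried for that mark. The tally therefore does not measure how firm the calls are. With domains above their list's median score alone, H3K4me3 lay at 3 genes in WT week 1 (Neurog2, Atoh1 and Hes5) and 0 in KO week 1, and bivalent genes numbered 3 and 0. With a 5 kb window, H3K4me3 lay at 3 genes in KO week 1 (Neurod1, Atoh1 and Hes5), and with 5 kb for both marks 3 were bivalent. With KO H3K27me3 domains held to the lowest mean count of the WT list, 1 gene was marked in KO mESC (Neurod2) and 4 in KO week 3. Neurog2, the 1 gene called bivalent in KO mESC, was then unmarked. That limit was not scaled to read depth or bin width. With summits above the median height alone, Oct4 lay near 4 genes and Sox2 near 2 in WT, and Nanog near 2 in KO. With the longer list cut to the length of the other genotype's list, Oct4 lay near 1 gene in WT (Neurog1), Sox2 near 3 in KO and Nanog near 1 in KO. Within 50 kb, Nanog lay near 1 gene in WT (Neurod2) and a Uhrf1 window near 2. Each of these settings adds or drops regions by construction, and why single calls moved was not tested. The KO count of H3K4me3 stayed below that of WT in mESC and at week 1 under every window and score tried, by 3 to 5 genes, and at week 2 it was above or equal.

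No paired analysis was possible because each group held 1 library. For the same reason no replicate was left out, and library, culture and genotype cannot be told apart. Read depth of each library was not used, so a domain or summit not called is not shown to be absent. With the 5 kb window the H3K4me3 calls added were Neurod1 and Hes5 in KO week 1 and Neurod2 in WT week 3. H3K4me3 bins of 1300 bp in mESC and 350 or 400 bp in EB limit the comparison of domain lengths between stages. Bin widths that differed between WT and KO at some stages limit the comparison of mean counts.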
